A study of Brassica rapa subsp. chinensis with 2 samples.

Results

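The genes described here encode the carriers that move nitrate, ammonium, urea, amino acids and short peptides across plant membranes, as read in stem RNA of 2 *Brassica rapa* lines. They are the 128 genes, of 33087 in the deposited table, whose best protein match is described as a member of the NRT1/PTR family (NPF, 73 genes), a nitrate transporter of the NRT2 or NRT3 kind (8 and 4 genes) or a probable peptide/nitrate transporter (1 gene), an ammonium transporter (AMT, 7 genes), the urea symporter DUR3 (3 genes), an amino acid permease (AAP, 17 genes) or a lysine histidine transporter (LHT, 15 genes). All 128 matches are to *Arabidopsis thaliana* proteins, 69 different ones, and 35 of these proteins are matched by more than 1 gene (94 genes). Plants take up nitrogen from the soil as nitrate, ammonium, urea and amino acids, and send it up in the xylem and from leaf to sink in the phloem. The NPF proteins form a large family whose members carry very different cargoes, among them nitrate, peptides, glucosinolates, gibberellin and abscisic acid, while NRT2 proteins work with a small NRT3 partner in high-affinity nitrate uptake, and AAP and LHT proteins import amino acids into cells together with protons.

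The study compared stems of ‘CX001’, a wax-less doubled-haploid line of flowering Chinese cabbage, with those of ‘FT’, a doubled-haploid Chinese cabbage line with epidermal wax, in order to characterise the wax-less trait *wlm1*. Its transcriptome methods do not state the growth stage of these stems. The candidate gene of the study is BraA09g066480.3C, the match of the wax synthesis gene *CER1*, which is lost in ‘CX001’. Both lines were grown from vernalized seed without further treatment, and total RNA of 3 libraries per line was sequenced on an Illumina Hiseq4000. Whether the 3 libraries came from separate plants is not stated, so p-values measure only the spread between these libraries, which may be technical. Each group is a single line, and the lines belong to different crop types: effects of *wlm1* and other differences between the 2 genomes, including gene copies that one line lacks or reads that map less well from one line, cannot be told apart. In bulk stem RNA, fewer cells of a type and less RNA per cell cannot be told apart either.

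The deposited values are 1 mean of normalized reads per gene and line. Because they are written to 15 significant digits and each is a sum of whole reads times 3 fixed steps, the reads of each library could be worked out again, and only 1 set of whole reads gave the deposited mean for each transporter gene. Values below are these reads divided by the size factor of the library (normalized reads), in the order of libraries 1, 2 and 3 of a line, where the numbers only name the libraries. The libraries held 16085873 to 16824901 reads on genes in ‘FT’ and 15997108 to 17802468 in ‘CX001’, and the transporter genes took 0.221% to 0.264% and 0.198% to 0.226% of them. BraA09g066480.3C (chromosome A09, 45147722 to 45152449) had 14256, 16508 and 20003 normalized reads in ‘FT’ and 5.66, 11.6 and 25.7 in ‘CX001’. Markers of xylem and lignified walls summed to 5956 to 8108 in the ‘FT’ libraries and 10329 to 32477 in ‘CX001’, and 9 of 16 tested were called higher by limma and 0 lower (at an unadjusted p under 0.05, 12 higher and 0 lower). Phloem markers summed to 12281 to 15805 and 14938 to 18651 (1 higher and 2 lower of 15), epidermis markers to 6084 to 10131 and 5343 to 5537 (2 lower of 11, both copies of the wax elongase *CUT1*) and photosynthesis markers to line means of 410785 and 285086 (3 higher and 1 lower of 15). Some of these photosynthesis genes had more than 1 possible set of reads, so their library values and calls are less certain. Root markers summed to 659 to 781 and 444 to 559 (2 higher and 2 lower of 5 tested), and of flower and pollen markers 4 were tested and 0 called by limma (1 higher at an unadjusted p under 0.05). Called in either direction were 56.2% of the tested xylem markers, 20% of phloem, 18.2% of epidermis, 26.7% of photosynthesis and 80% of root markers. Of all 26600 genes tested, 29.7% were called, 13.9% higher and 15.8% lower. Of the 11 root markers, 4 had no read in ‘FT’ and 1 had none in ‘CX001’, and of the 14 flower and pollen markers 8 and 0. Among those without a read in ‘FT’, *CASP5*, *COBL9*, *EXPA7* and both copies of *AP3* had ‘CX001’ means of 0.643 to 3.47, too low to test.

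A gene was called higher or lower when limma gave an adjusted p under 0.05 over all genes tested and the log2 fold change of ‘CX001’ over ‘FT’ was above 1 or below -1. Of the 128 transporter genes, 92 had a mean of at least 5 normalized reads over both lines and were tested. In ‘CX001’, 22 of them were higher and 16 lower, while 54 were not called. The 38 called genes are 41.3% of those tested, against 29.7% of all 26600 genes tested. Those called higher are 23.9% (13.9% of all genes tested) and those called lower 17.4% (15.8% of all genes tested). The median log2 fold change was 0.04 over the tested transporter genes and 0.00 over all tested genes. The 36 genes that were not tested had 1 to 23 reads over all 6 libraries (median 3.5), and 16 of them had no read in ‘FT’ and 5 none in ‘CX001’. Of those tested, 10 passed the minimum only through ‘CX001’ and 3 only through ‘FT’, which fixes their direction.

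**Figure D1:**
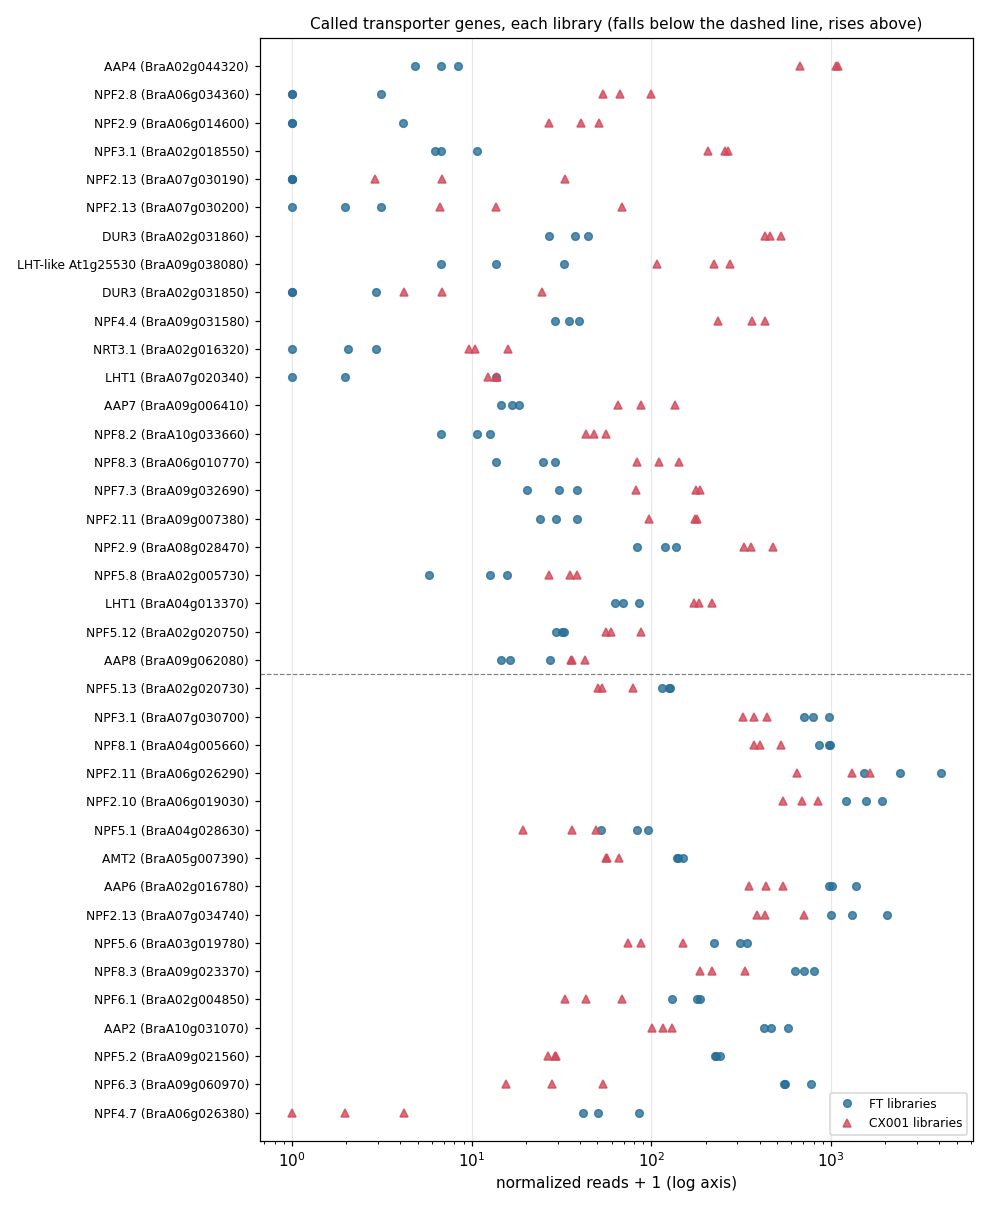
Normalized reads plus 1 on a log axis for the 38 called transporter genes, 1 row per gene ordered by log2 fold change, with the 3 ‘FT’ libraries as circles and the 3 ‘CX001’ libraries as triangles. Rises stand above the dashed line, led by *AAP4* BraA02g044320.3C at 3.85 to 7.38 in ‘FT’ and 668 to 1095 in ‘CX001’, and falls below it, where NPF2.11 BraA06g026290.3C has libraries of the lines that overlap.

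Of the 64 transporter genes with a mean of at least 50, 11 were called higher and 15 lower (40.6% called), and of the 20185 genes of the whole table at that level 2301 were higher and 2864 lower (25.6% called). Among the 22 genes called higher, 7 had an ‘FT’ mean under the test minimum. The sum over all 128 genes was 42682, 34174 and 38979 in ‘FT’ and 32317, 36347 and 38714 in ‘CX001’, so that the libraries of the lines overlapped in total transporter reads.

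**Figure D2:**
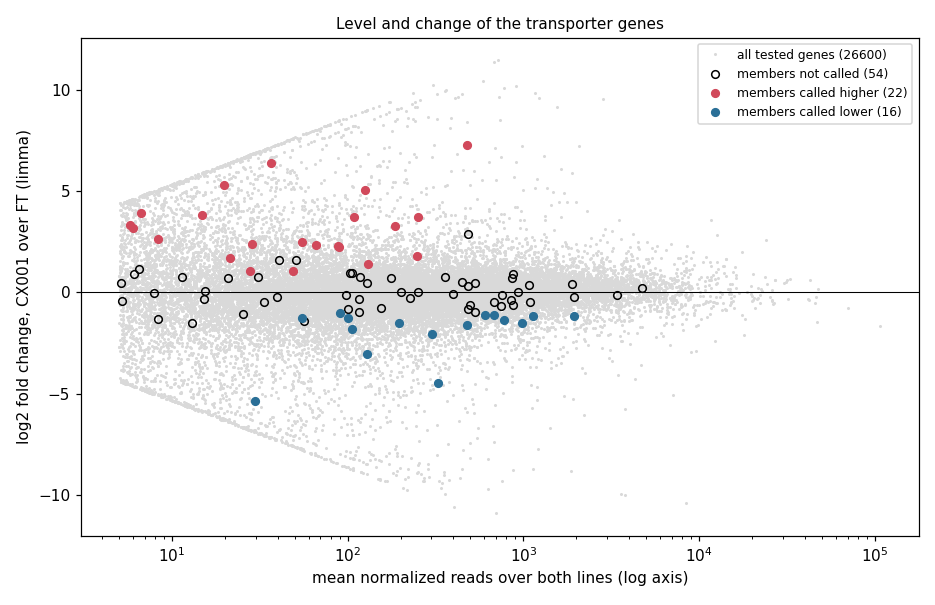
Mean normalized reads over both lines (log axis) against the limma log2 fold change, ‘CX001’ over ‘FT’, for all 26600 tested genes (grey) and the 92 tested transporter genes (circles). The 22 transporter genes called higher and the 16 called lower lie above 1 and below -1, and the called genes with a mean of at least 50 are 11 higher and 15 lower.

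Of the 6 tested NPF6 genes, limma called 2 lower and 0 higher (3 lower and 1 higher at an unadjusted p under 0.05). NPF6.3 (NRT1.1) is the dual-affinity nitrate transporter that also serves as a nitrate sensor in Arabidopsis. Its well read copy BraA09g060970.3C (chromosome A09, 42614336 to 42618089, minus strand) had 770.0, 544 and 551 in ‘FT’ and 52.9, 14.5 and 26.8 in ‘CX001’. Every ‘FT’ library was more than 10 times above every ‘CX001’ library, and the gene fell (log2 fold change -4.45 ± 0.42 (SE), adjusted p = 1.0e-04). The other tested copy, BraA08g031180.3C, had 25.02, 6.74 and 22.1 in ‘FT’ and 17.9, 4.83 and 1.07 in ‘CX001’ and was not called. The last 2 genes matched to NPF6.3 are the neighbours BraA06g009460.3C and BraA06g009470.3C, with coding lengths of 294 and 777 bases and too few reads to test. Whether they are pieces of 1 gene was not tested. NPF6.2 (NRT1.4), known from nitrate storage in leaf petioles, had 4089, 3501 and 3034 in ‘FT’ and 3207, 2900 and 3701 in ‘CX001’ in BraA07g017760.3C and did not pass (log2 fold change -0.11 ± 0.16 (SE), adjusted p = 0.58). NPF6.1 BraA02g004850.3C had 129.9, 178 and 186 in ‘FT’ and 42.5, 67.5 and 32.1 in ‘CX001’ and fell (log2 fold change -1.82 ± 0.31 (SE), adjusted p = 0.0017).

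NPF7.3 (NRT1.5) loads nitrate into the xylem of Arabidopsis roots, and NPF7.2 (NRT1.8) takes it back out of the xylem sap. NPF7.3 BraA09g032690.3C (chromosome A09, 25398462 to 25402221) had 37.5, 19.3 and 29.5 in ‘FT’ and 81.2, 185 and 177 in ‘CX001’. All ‘CX001’ libraries were above all ‘FT’ libraries, and the gene rose (log2 fold change 2.29 ± 0.49 (SE), adjusted p = 0.005). NPF7.2 BraA03g049670.3C had 114, 11.6 and 366 in ‘FT’ and 246, 1751 and 418 in ‘CX001’. Its libraries spread more than 10-fold within ‘FT’, ‘FT’ library 3 lay above ‘CX001’ library 1, and the difference did not pass (log2 fold change 2.88 ± 1.16 (SE), adjusted p = 0.07). It passed without ‘CX001’ library 1 (log2 fold change 3.49), but was smaller in limma without ‘FT’ library 2 (1.49, adjusted p = 0.23) or ‘CX001’ library 2 (2.05, adjusted p = 0.14). The second NPF7.2 copy, BraA01g012370.3C, was likewise highest in ‘CX001’ library 2 at 205, with 28.3 and 18.2 in the other 2 and 7.70 to 33.7 in ‘FT’. The summed xylem markers given above were lowest in ‘CX001’ library 1 (10329), as NPF7.3 was, and highest in library 3 (32477). Their part in the NPF7 values was not tested.

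Nitrate carriers known from the phloem held both rises and falls, while the best read of them were not called. NPF1.2 and NPF1.1 (NRT1.11 and NRT1.12) move nitrate from the xylem into the phloem of expanded Arabidopsis leaves. NPF1.2 BraA06g002150.3C had the highest level of all transporter genes per 1000 coding bases in both lines, 2379 normalized reads in ‘FT’ and 2794 in ‘CX001’. Per library it had 4455, 3926 and 4616 in ‘FT’ and 4701, 5043 and 5522 in ‘CX001’, and it was not called (log2 fold change 0.23 ± 0.13 (SE), adjusted p = 0.17). NPF1.1 BraA05g031010.3C was at 1771 to 2246 in ‘FT’ and 1484 to 2260.2 in ‘CX001’, with overlapping libraries. NPF2.13 (NRT1.7), which exports nitrate from old leaves through the phloem, had 1 copy that fell, BraA07g034740.3C, with 2049, 999 and 1304 in ‘FT’ and 427, 702 and 386 in ‘CX001’ (log2 fold change -1.505 ± 0.30 (SE), adjusted p = 0.0036). Its other full-length copy BraA02g019460.3C overlapped between the lines, with 1181, 1239 and 1282 in ‘FT’ and 697, 1312 and 805 in ‘CX001’. NPF2.9 (NRT1.9), a nitrate carrier of phloem companion cells, rose in BraA08g028470.3C, which had 118, 81.8 and 136 in ‘FT’ and 358, 325 and 471 in ‘CX001’ (log2 fold change 1.79 ± 0.24 (SE), adjusted p = 5.2e-04). It also rose in BraA06g014600.3C, with 3 reads in 1 ‘FT’ library and none in the other 2, against 39.6, 26.1 and 50.4 normalized reads in ‘CX001’. The ‘FT’ level of that copy was 2.73% of the ‘CX001’ level (95% exact binomial interval 0.554% to 8.16%, counting error only). The remaining copy, BraA09g056980.3C, had 125, 144 and 119 in ‘FT’ and 110.4, 91.7 and 107 in ‘CX001’ and was not called.

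High-affinity nitrate uptake genes were hardly read in these stems. Of the 8 NRT2 genes, 6 had 1 to 4 reads over all 6 libraries, among them the match of *NRT2.1*, the main root uptake carrier, with 1 read. The best read was the match of *NRT2.7*, which loads nitrate into seed vacuoles in Arabidopsis. It had 125, 29.9 and 100.1 in ‘FT’ and 27.4, 24.1 and 29.99 in ‘CX001’ in BraA02g005540.3C, and the lines overlapped in the low ‘FT’ library 2, without which it was called lower (log2 fold change -2.04, against -1.39 with all libraries). The partner protein NRT3.1 rose in BraA02g016320.3C, at 0, 1.93 and 1.05 in ‘FT’ and 9.44, 8.69 and 15 in ‘CX001’, which are 3 reads in ‘FT’. The ‘FT’ level was 9.0% of the ‘CX001’ level (95% exact binomial interval 1.77% to 28.7%, counting error only). Its best read copy, BraA03g026180.3C, had 9.62, 0 and 4.22 in ‘FT’ and 0.944, 15.4 and 6.43 in ‘CX001’, and the *NRT3.2* match BraA01g015480.3C had 16 reads in ‘FT’ and none in ‘CX001’, too few to test.

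**Figure D3:**
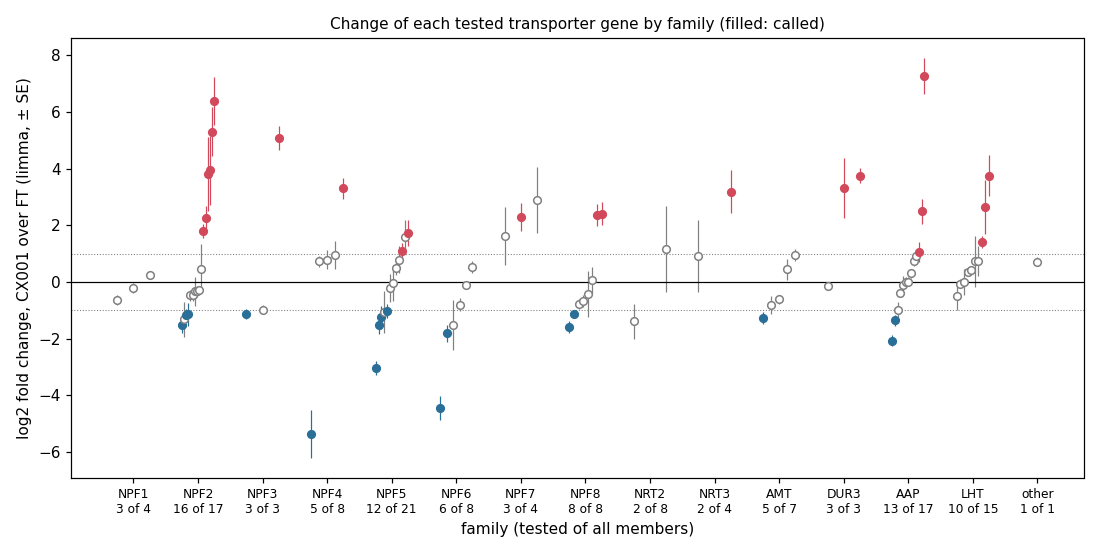
Limma log2 fold change with its standard error for each of the 92 tested transporter genes, by family, with called genes filled (red higher, blue lower in ‘CX001’) and the numbers tested of all members under each family. Of the called genes, NPF6 holds 2 falls, LHT 3 rises and DUR3 2 rises, while NPF2, NPF5 and AAP hold both.

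Of the 16 tested NPF2 genes, 6 rose and 3 fell. The rises of BraA07g030190.3C, BraA07g030200.3C, BraA06g034360.3C and BraA06g014600.3C passed the test minimum only through ‘CX001’, which fixed their direction. NPF2.10 and NPF2.11 (GTR1 and GTR2) import glucosinolates, the mustard oil precursors of the Brassicaceae, for loading into the phloem. NPF2.10 fell in its main copy BraA06g019030.3C, from 1921, 1203 and 1571 in ‘FT’ to 538, 684 and 848 in ‘CX001’ (log2 fold change -1.18 ± 0.22 (SE), adjusted p = 0.0024). The main copy of NPF2.11, BraA06g026290.3C, had 4090, 1521 and 2407 in ‘FT’ and 643, 1304 and 1640 in ‘CX001’. It passed as lower (log2 fold change -1.15 ± 0.41 (SE), adjusted p = 0.045), but ‘CX001’ library 3 lay above ‘FT’ library 2, and the call was lost without ‘FT’ library 1 or 3 or ‘CX001’ library 1 or 2, with log2 fold changes of -0.79, -1.17, -0.75 and -1.27 (adjusted p = 0.073 to 0.15), and with limma-trend (adjusted p = 0.051). The minor NPF2.11 copy BraA09g007380.3C rose, with 37.5, 23.1 and 28.5 in ‘FT’ and 95.3, 175 and 178 in ‘CX001’ (log2 fold change 2.27 ± 0.40 (SE), adjusted p = 0.0019). The remaining copies were not called by limma. They are NPF2.10 BraA06g024270.3C (log2 fold change -0.30, adjusted p = 0.17) and BraA01g024830.3C (-1.31, 0.11) and NPF2.11 BraA02g043810.3C (-0.47, 0.079). NPF2.8, a flavonol glycoside carrier of pollen in Arabidopsis, had 2 reads in ‘FT’ and 98.2, 65.6 and 52.5 in ‘CX001’ in BraA06g034360.3C, and was called higher. The ‘FT’ level was 0.975% of the ‘CX001’ level (95% exact binomial interval 0.117% to 3.56%, counting error only). The summed flower and pollen markers were at 87.6 to 139 in ‘FT’ and 124 to 251 in ‘CX001’, and their part in the NPF2.8 values was not tested.

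All 3 NPF3 genes are matched to NPF3.1, and 1 rose and 1 fell. NPF3.1 carries gibberellin, and also nitrate and nitrite, in Arabidopsis. BraA02g018550.3C (chromosome A02, 10436201 to 10443396) had 5.78, 9.63 and 5.27 in ‘FT’ and 206, 267 and 257 in ‘CX001’, a rise (log2 fold change 5.07 ± 0.42 (SE), adjusted p = 6.2e-05), while BraA07g030700.3C, with 707, 794 and 972 in ‘FT’ and 371, 441 and 321 in ‘CX001’, fell (log2 fold change -1.12 ± 0.17 (SE), adjusted p = 0.0011). The last copy, BraA07g033670.3C, was lower in every ‘CX001’ library but just short of the fold minimum (log2 fold change -0.98 ± 0.15 (SE), adjusted p = 0.0011). It was called with library totals as size factors (-1.04) and without ‘FT’ library 1 or 2 or ‘CX001’ library 1 or 3 (lowest -1.09). BraA07g030700.3C lies as close on the other side: without ‘FT’ library 3 its log2 fold change was -0.996. Of the 5 tested NPF4 genes, 1 rose and 1 fell. NPF4.4 (NRT1.13), linked to flowering time and branching under low nitrate in Arabidopsis, rose in BraA09g031580.3C from 38.5, 27.9 and 33.7 in ‘FT’ to 426, 360.0 and 232 in ‘CX001’ (log2 fold change 3.30 ± 0.38 (SE), adjusted p = 2.5e-04). NPF4.6, an importer of abscisic acid and nitrate, was higher in every ‘CX001’ library, with 708, 536 and 697 in ‘FT’ and 834, 1146 and 1245 in ‘CX001’ in BraA07g034710.3C, but under the fold minimum (log2 fold change 0.72 ± 0.19 (SE), adjusted p = 0.012). NPF4.7 BraA06g026380.3C had 40.4, 49.1 and 84.3 in ‘FT’ and 0, 0.965 and 3.21 in ‘CX001’, of which the ‘CX001’ values are 4 reads in all, and fell (log2 fold change -5.36 ± 0.84 (SE), adjusted p = 0.0011). This gene passed the test minimum only through ‘FT’, which fixed its direction.

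Of the 8 NPF8 genes, 2 rose and 2 fell. NPF8.1 (PTR1), NPF8.3 (PTR2) and NPF8.2 (PTR5) transport dipeptides and tripeptides, and NPF5.2 (PTR3) is a peptide transporter gene induced by wounding. NPF8.1 BraA04g005660.3C fell, with 985, 853 and 973 in ‘FT’ and 401, 372 and 522 in ‘CX001’ (log2 fold change -1.13 ± 0.16 (SE), adjusted p = 5.9e-04). NPF8.3 fell in BraA09g023370.3C, from 627, 701 and 803 in ‘FT’ to 184, 216 and 329.9 in ‘CX001’ (log2 fold change -1.59 ± 0.21 (SE), adjusted p = 5.2e-04), and was also lower in BraA06g039940.3C, with 873, 797 and 1047 in ‘FT’ and 544, 438 and 775 in ‘CX001’, under the fold minimum. Another NPF8.3 match of 477 coding bases, BraA06g010770.3C, rose from 24.1, 27.9 and 12.7 in ‘FT’ to 142, 82.0 and 109 in ‘CX001’ (log2 fold change 2.36 ± 0.40 (SE), adjusted p = 0.0017). NPF8.2 BraA10g033660.3C was low and rose, with 5.78, 9.63 and 11.6 in ‘FT’ and 42.5, 55.0 and 47.1 in ‘CX001’ (log2 fold change 2.41 ± 0.40 (SE), adjusted p = 0.0015). NPF5.2 BraA09g021560.3C had 225, 226 and 239 in ‘FT’ and 28.3, 28.0 and 25.7 in ‘CX001’ and fell (log2 fold change -3.05 ± 0.24 (SE), adjusted p = 5.1e-05), and its 2 neighbours BraA09g021570.3C and BraA09g021580.3C, also matched to NPF5.2, had too few reads to test.

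Within NPF5, the largest subfamily with 21 genes, 2 rose and 4 fell of 12 tested. NPF5.6 BraA03g019780.3C fell from 341, 222 and 311 in ‘FT’ to 149, 85.9 and 72.8 in ‘CX001’ (log2 fold change -1.53 ± 0.29 (SE), adjusted p = 0.003), and BraA02g005730.3C, matched to NPF5.8, rose from 4.81, 11.6 and 14.8 in ‘FT’ to 34.0, 26.1 and 37.5 in ‘CX001’ (log2 fold change 1.73 ± 0.47 (SE), adjusted p = 0.016), a call lost without ‘FT’ library 1 (adjusted p = 0.062). The best read gene of the subfamily, NPF5.1 BraA03g021460.3C, had 451, 435 and 411 in ‘FT’ and 474, 528 and 890.2 in ‘CX001’ and was not called. A gene model of 336 coding bases with the same match, BraA04g028630.3C, passed as lower at 81.8, 94.4 and 51.6 in ‘FT’ and 34.9, 18.3 and 48.2 in ‘CX001’ (log2 fold change -1.24 ± 0.41 (SE), adjusted p = 0.033), but not without ‘FT’ library 1 or 2 or ‘CX001’ library 1 or 2 (adjusted p = 0.059 to 0.12). NPF5.12, an exporter of nitrate from the vacuole, and NPF5.13 are matched by BraA02g020750.3C and BraA02g020730.3C, genes of nearby numbers on chromosome A02 with calls in opposite directions. BraA02g020750.3C had 31.8, 30.8 and 28.5 in ‘FT’ and 54.7, 58.9 and 86.8 in ‘CX001’ (log2 fold change 1.08 ± 0.31 (SE), adjusted p = 0.019), and BraA02g020730.3C had 114, 124 and 127 in ‘FT’ and 78.3, 52.1 and 49.3 in ‘CX001’ (log2 fold change -1.03 ± 0.24 (SE), adjusted p = 0.0078). The first call was lost without any 1 ‘FT’ library or ‘CX001’ library 3 (log2 fold changes 0.89 to 1.12) and the second without ‘CX001’ library 2 or 3 (-0.94 and -0.92).

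Of the 3 DUR3 genes, 2 rose, while 3 rose and 2 fell of 13 tested AAP genes and 3 rose of 10 tested LHT genes. Among these rises, DUR3 BraA02g031850.3C and LHT1 BraA07g020340.3C passed the test minimum only through ‘CX001’, which fixed their direction. DUR3 is the high-affinity urea importer, and BraA02g031860.3C (chromosome A02, 21879253 to 21888166) had 36.6, 26.0 and 43.2 in ‘FT’ and 456, 426 and 525 in ‘CX001’. Even the lowest ‘CX001’ library was almost 10 times above the highest ‘FT’ library, and the gene rose (log2 fold change 3.74 ± 0.27 (SE), adjusted p = 3.7e-05). The main DUR3 gene, BraA09g021250.3C, had 786, 758 and 837 in ‘FT’ and 635, 721 and 816 in ‘CX001’ and was not called. A model of 201 coding bases that ends 4295 bases before BraA02g031860.3C, BraA02g031850.3C, was called higher as well, from 2 reads in ‘FT’ to 23.6, 5.79 and 3.21 in ‘CX001’. Whether it is a piece of the same gene was not tested, and its call was lost without ‘FT’ library 2 or 3 or ‘CX001’ library 1 or 2 (adjusted p = 0.055 to 0.11).

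The broad amino acid importer AAP4 showed the largest rise, in BraA02g044320.3C (chromosome A02, 30561629 to 30563588). It had 3.85, 5.78 and 7.38 in ‘FT’ and 668, 1067 and 1095 in ‘CX001’, or 4.05 normalized reads per 1000 coding bases in ‘FT’ and 673 in ‘CX001’ (log2 fold change 7.27 ± 0.65 (SE), adjusted p = 7.8e-05). By that level it ranked 84th of the 128 genes in ‘FT’ and 7th in ‘CX001’. Its other copy, BraA06g027280.3C, had 245, 261 and 282 in ‘FT’ and 595, 368 and 394 in ‘CX001’, higher in each ‘CX001’ library but under the fold minimum (log2 fold change 0.76 ± 0.21 (SE), adjusted p = 0.016). AAP2, which moves amino acids from xylem to phloem along the stem in Arabidopsis, fell in BraA10g031070.3C (chromosome A10, 19474318 to 19476272), from 573, 423 and 464 in ‘FT’ to 115, 128 and 99.6 in ‘CX001’ (log2 fold change -2.08 ± 0.20 (SE), adjusted p = 1.0e-04). Its other copy, BraA03g003820.3C, was higher in every ‘CX001’ library, at 640.1, 493 and 682 in ‘FT’ and 1135, 981 and 1312 in ‘CX001’, and stayed under the fold minimum (log2 fold change 0.92 ± 0.17 (SE), adjusted p = 0.0024). It was called without ‘FT’ library 3 or ‘CX001’ library 2 (log2 fold changes 1.01 and 1.03). AAP6, a high-affinity permease known from xylem parenchyma, fell in BraA02g016780.3C, with 1378, 1004 and 974 in ‘FT’ and 430.4, 348 and 542 in ‘CX001’ (log2 fold change -1.35 ± 0.20 (SE), adjusted p = 8.4e-04). AAP7 BraA09g006410.3C rose from 13.5, 17.3 and 15.8 in ‘FT’ to 64.2, 85.9 and 135 in ‘CX001’ (log2 fold change 2.50 ± 0.44 (SE), adjusted p = 0.002). AAP1, an importer of uncharged amino acids, had the best read gene of the family, BraA09g017950.3C, at 1059, 780.0 and 938 in ‘FT’ and 729.6, 1020 and 1050 in ‘CX001’, and AAP5, an importer of basic amino acids, was likewise not called in either tested copy. AAP8, which loads the phloem, has 3 genes side by side on chromosome A09, of which only BraA09g062080.3C was tested. Its call as higher, at 13.5 to 26.4 and 34.7 to 41.8, was lost without any 1 library other than ‘FT’ library 3 (log2 fold changes 0.87 to 1.10, adjusted p = 0.06 to 0.13) and with library totals as size factors (0.99, adjusted p = 0.051).

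LHT1, which takes up neutral and acidic amino acids into roots and mesophyll, rose in BraA04g013370.3C from 83.7, 61.6 and 68.5 in ‘FT’ to 172, 183 and 215 in ‘CX001’ (log2 fold change 1.41 ± 0.21 (SE), adjusted p = 9.4e-04). The LHT-like gene BraA09g038080.3C, matched to At1g25530, rose more, from 5.78, 31.8 and 12.7 in ‘FT’ to 107, 272 and 223 in ‘CX001’ (log2 fold change 3.74 ± 0.72 (SE), adjusted p = 0.0031), while its other copy BraA08g025550.3C had 342 to 472 in ‘FT’ and 362 to 415 in ‘CX001’. The best read LHT gene, matched to LHT-like protein 8, had 1712, 1726 and 1404 in ‘FT’ and 2433, 2131 and 1960 in ‘CX001’ in BraA08g005010.3C, a difference under the fold minimum (log2 fold change 0.43 ± 0.14 (SE), adjusted p = 0.033). Of the 10 tested LHT genes, limma called 0 lower (0 also at an unadjusted p under 0.05, against 5 higher). The rise of the weak LHT1 copy BraA07g020340.3C, with 0.963, 0 and 12.7 in ‘FT’ and 11.3, 12.6 and 12.8 in ‘CX001’ (log2 fold change 2.64 ± 0.96 (SE), adjusted p = 0.048), was lost without any 1 library other than ‘FT’ library 3 (adjusted p = 0.073 to 0.2), with no filter on low values (0.055) and with limma-trend (0.077).

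Of the 7 ammonium transporter genes, 5 were tested and 1 was called. AMT1;1, a root and leaf uptake carrier, had 994, 1127 and 1047 in ‘FT’ and 574, 848 and 676 in ‘CX001’ in BraA05g015290.3C, lower in every ‘CX001’ library but under the fold minimum (log2 fold change -0.61 ± 0.16 (SE), adjusted p = 0.013). The 2 genes matched to AMT2, which moves ammonium towards the shoot, had log2 fold changes of opposite sign. BraA05g007390.3C fell, with 149, 139 and 137 in ‘FT’ and 55.7, 64.7 and 54.6 in ‘CX001’ (log2 fold change -1.27 ± 0.21 (SE), adjusted p = 0.0013), and BraA04g027130.3C had 70.3, 65.5 and 78.0 in ‘FT’ and 118, 145 and 158 in ‘CX001’, short of the fold minimum (log2 fold change 0.96 ± 0.22 (SE), adjusted p = 0.0066). In the sum of both, the lines overlapped. The 1 gene described as a probable peptide/nitrate transporter, BraA08g012370.3C, carries the symbol *ZIFL2*, the name of a zinc-induced facilitator-like protein, and had 138, 138 and 127 in ‘FT’ and 237, 225 and 201 in ‘CX001’, under the fold minimum.

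*B. rapa* often holds several copies of 1 Arabidopsis gene. Of the 35 proteins with several genes, 21 had at least 1 called copy, and for 4 of them (NPF2.11, NPF2.13, NPF3.1 and NPF8.3) 1 copy was higher and another lower. Some of these calls are weak: the NPF2.13 rises and the NPF2.11 fall were each lost when certain single libraries were left out. The NPF3.1 fall was lost without ‘FT’ library 3, and the NPF8.3 rise is that of a model of 477 coding bases. Among the 31 of the 35 proteins with a summed mean of at least 20 over both lines, the copy with most reads was another one in ‘CX001’ than in ‘FT’ for 6 (AAP1, AAP4, AMT2, NPF2.9, NPF2.13 and NPF6.4). In AAP4 and AMT2 this held in every library, and in the other 4 at least 1 library had its most reads in another copy. For AAP4, BraA06g027280.3C gave 97.9% of the reads in ‘FT’, and BraA02g044320.3C gave 67.6% in ‘CX001’. The sum of both was 249, 267 and 289 in ‘FT’ and 1263, 1435 and 1489 in ‘CX001’, with no overlap. For AAP2, BraA03g003820.3C went from 55.4% to 90.9% of the reads, while the sum was 1213, 916 and 1146 in ‘FT’ and 1250, 1110 and 1412 in ‘CX001’, with overlapping libraries. For DUR3, BraA09g021250.3C went from 95.7% to 60.1%, and the sum was 784 to 880 in ‘FT’ and 1115 to 1344 in ‘CX001’. The NPF3.1 sum was lower in every ‘CX001’ library (952 to 1004, against 1400 to 1724), although 1 copy rose. The sums over copies were compared without a test. Reads of near-identical copies can be assigned to the wrong one, so values of single copies and their shares are uncertain, and the part of mapping in them was not tested.

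**Figure D4:**
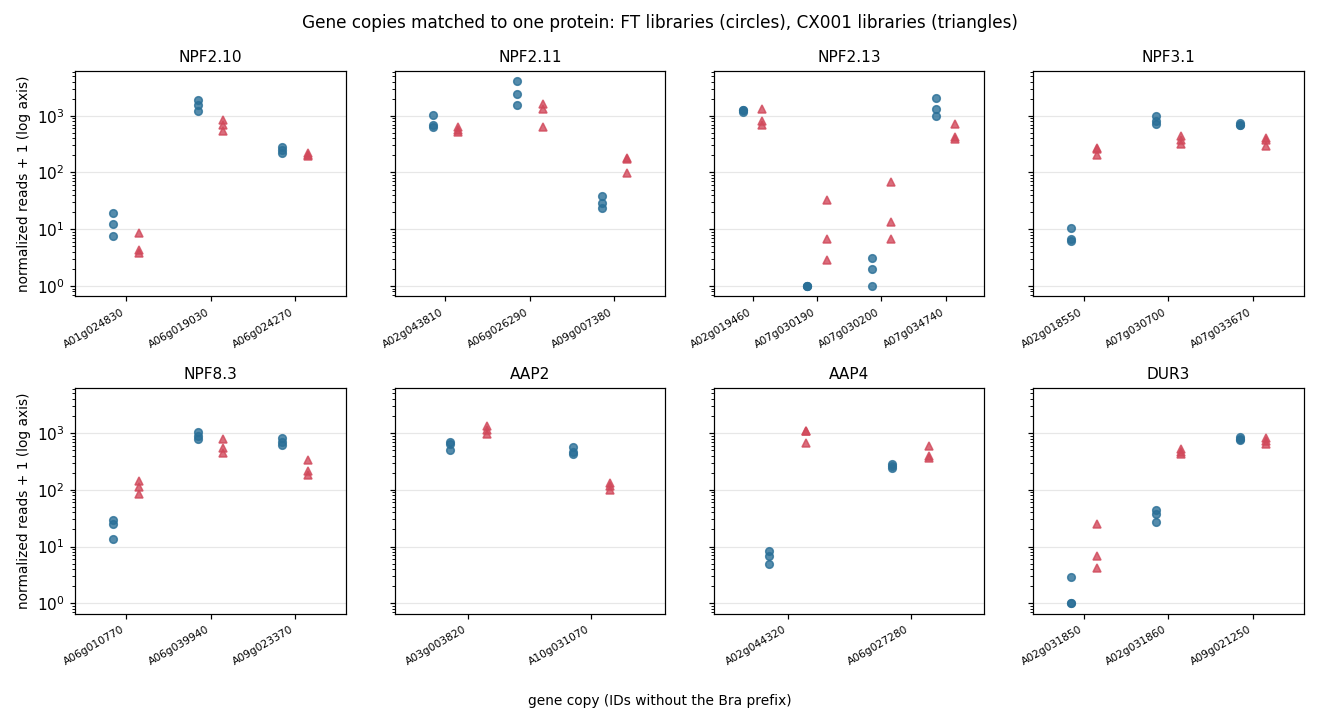
Normalized reads plus 1 (log axis) in each library for the gene copies matched to 8 proteins, ‘FT’ as circles and ‘CX001’ as triangles. In AAP4, AAP2, DUR3 and NPF3.1, 1 copy changed strongly while another of the same protein stayed within 1 log2 unit or moved the other way.

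Neighbouring genes and short gene models were few. Among the genes of the deposited table, transporter genes followed each other directly along a chromosome in 12 pairs (22 genes). In 2 pairs both genes were called, each time higher: the DUR3 pair and the NPF2.13 pair BraA07g030190.3C and BraA07g030200.3C. The NPF2.13 pair, of 729 and 945 coding bases, had no read and 3 reads in ‘FT’, and in ‘CX001’ 1.89, 5.79 and 32.1 and 5.66, 12.6 and 67.5 normalized reads, with ‘CX001’ library 3 far above the others. Against a floor of 3 reads over the ‘FT’ libraries, the first was at least 12.6-fold higher in ‘CX001’, but at least 3.64-fold without ‘CX001’ library 3. The second stood in ‘FT’ at 3.58% of its ‘CX001’ level (95% exact binomial interval 0.724% to 10.8%, counting error only), and at 11.2% without ‘CX001’ library 3. Both calls were lost without any 1 ‘FT’ library or without ‘CX001’ library 2 (adjusted p = 0.056 to 0.074 and 0.07 to 0.13). Of the 15 transporter genes with under 1000 coding bases, 8 were tested, and 5 of them were called higher and 1 lower, beside 15.2% higher and 19.3% lower of the 11457 genes of such length tested in the whole table. These shares cannot be read as an excess of rises. BraA07g030190.3C, BraA07g030200.3C, BraA02g016320.3C and BraA02g031850.3C passed the test minimum only through ‘CX001’, which fixed their direction. By chromosome, A09 held the most transporter genes (25, with 6 higher and 3 lower of 18 tested) and A02 the most called (7 higher and 3 lower of 15 tested), while of the 7 tested on A01 limma called 0 (4 at an unadjusted p under 0.05). The share of all genes called on each chromosome is not given here, so these counts do not set the transporter genes apart.

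Genes that work beside the transporters were counted in the same way. Of 89 genes of nitrogen assimilation and its regulation, 81 were tested, and 14 were higher and 17 lower (38.3% called, against 29.7% of all genes tested, with a median log2 fold change of -0.22). Those higher were 17.3% (13.9% of all genes) and those lower 21.0% (15.8% of all genes). Among the enzymes, cytosolic glutamine synthetase *GLN1-3* rose in BraA03g038160.3C from 93.4, 111 and 104 in ‘FT’ to 1267, 770.1 and 598 in ‘CX001’ (log2 fold change 3.02 ± 0.34 (SE), adjusted p = 2.1e-04), and glutamate dehydrogenase *GDH2* rose in BraA03g002960.3C (log2 fold change 1.51). NADH-dependent glutamate synthase *GLT1* fell in BraA03g014440.3C (-1.02), and the best read enzyme, ferredoxin-dependent glutamate synthase *GLU1* in BraA10g032170.3C, at means of 12396 and 8536, was not called. The NLP proteins are transcription factors that switch on nitrate-responsive genes. Of 16 tested NLP genes, 4 rose and 5 fell. *NLP6* BraA09g014250.3C fell from 2105, 2115 and 2367 in ‘FT’ to 209, 274 and 198 in ‘CX001’ (log2 fold change -3.28 ± 0.16 (SE), adjusted p = 1.4e-05), *NLP8* BraA03g022770.3C went from a mean of 212 to 1.72, and *NLP4* BraA08g009920.3C had no read in ‘FT’ and 83.1, 81.1 and 69.6 in ‘CX001’, which is at least 73.9-fold higher when ‘FT’ is set at 3 reads. *NLP8* passed the test minimum only through ‘FT’ and *NLP4* only through ‘CX001’, which fixed their directions.

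Carriers outside the families above were mostly higher when called. They were listed for cargoes such as amino acids, peptides and nitrate, but also polyamines, nucleobases and auxin. The auxin importers (AUX/LAX) rose in 3 and fell in 0 of 7 tested genes. Of 171 such carrier genes, 143 were tested, and 44 were higher and 13 lower (39.9% called, against 29.7% of all genes tested, with a median log2 fold change of 0.42). Those higher were 30.8% (13.9% of all genes) and those lower 9.09% (15.8% of all genes). Amino acid carriers of the vacuole (AVT) rose in 12 and fell in 1 of 25 tested genes, among them *AVT1A* BraA03g021820.3C, from 68.3, 56.8 and 80.1 in ‘FT’ to 348, 441 and 477 in ‘CX001’ (log2 fold change 2.62 ± 0.23 (SE), adjusted p = 7.9e-05). The S-type anion channels, some of which release nitrate, rose in 5 of 6 tested genes. *SLAH2* BraA03g054040.3C had 12.5, 5.78 and 9.49 in ‘FT’ and 382, 329 and 334 in ‘CX001’ (log2 fold change 5.22 ± 0.38 (SE), adjusted p = 3.8e-05). *CLC-A*, which stores nitrate in the vacuole, rose in BraA04g015280.3C from 154, 289 and 242 in ‘FT’ to 863, 1012 and 1168 in ‘CX001’, the 1 called of 10 tested CLC genes. The WAT1-related proteins, of which several export amino acids, rose in 17 and fell in 7 of 49 genes. BraA10g007340.3C, matched to At1g44800, went from a mean of 112 to 464 and BraA01g044170.3C, matched to the chloroplast protein At3g02690, from 876 to 122. Polyamine transporter genes fell in 3 of 5, and of the 11 tested nucleobase-ascorbate transporter genes limma called 0 (5 at an unadjusted p under 0.05), the best read carrier *NAT6* BraA09g007500.3C among them.

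**Figure D5:**
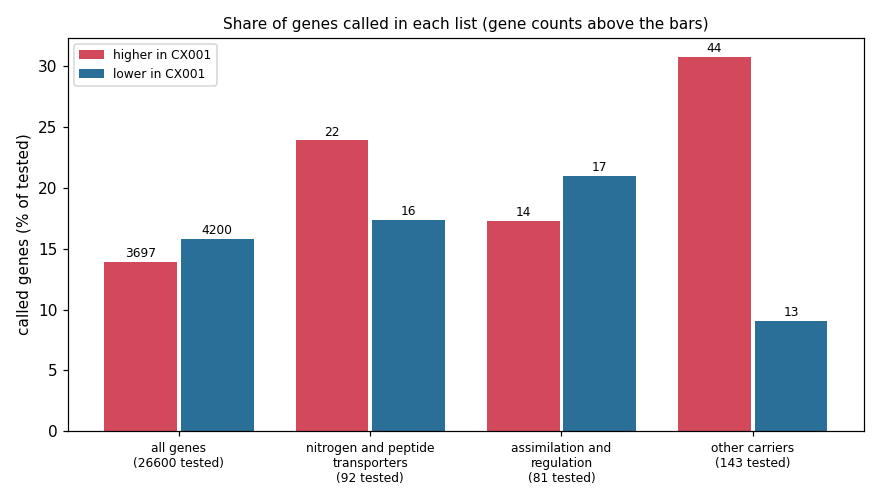
Share of tested genes called higher and lower in ‘CX001’ (% of tested, bars from 0, gene counts above them) for all genes, the transporter genes, genes of nitrogen assimilation and regulation, and other carriers. Called genes were 44 higher and 13 lower among the other carriers and 22 higher and 16 lower among the transporter genes, beside 3697 and 4200 of all genes.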

How the data were processed

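Stems of ‘CX001’ and ‘FT’ were sequenced, with 3 libraries per line. According to the methods, the authors filtered reads for quality and for adapter and homopolymer sequence, then used HISAT2 for alignment, StringTie for transcript assembly and DESeq2 for the comparison. TopHat2 also stands in the submitters' notes. The build used for RNA reads is not given in the sources used here, and coordinates and coding lengths are those of the deposited table. The deposited signal of a gene in a line is the authors' mean over 3 libraries of its count after size-factor scaling, written with 15 significant digits. The fold change and p-value columns of the deposited table hold the authors' own comparison and were not used.

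For each gene, the whole reads per library were found whose sum, weighted with the 3 steps of the line (0.321 to 0.351 in ‘FT’, 0.315 to 0.357 in ‘CX001’), gives the deposited mean. All 33087 genes had a solution, and 27 highly read genes, none of them a transporter gene, had several. Median-of-ratios size factors computed from these reads equalled those in the steps (largest difference 1.3e-15). Reads were tested with voom of limma 3.58.1 in R 4.3.3, with those size factors, for genes with a mean of at least 5 over both lines, and p-values were adjusted over all 26600 genes by Benjamini-Hochberg. In simulated data over these genes, 93 of 98 genes changed by 1.5 log2 units and 101 of 102 changed by 2 were called. The simulation gave every gene the same spread, the median of well read genes, and changed few genes. Its shares therefore do not describe transporter genes with a wider spread between libraries. Intervals for 1 to 3 reads are exact binomial intervals (95%), and the floor is 3 reads over a line.

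The members and gene lists were chosen with earlier results of these data known. Named are the called genes with a mean of at least 20 (14 largest rises and falls), the best read gene of each family, all copies of 8 proteins with called copies, and in other lists the 4 called genes with the smallest p and the best read. Other copies and genes beside these were chosen after their values were seen. Genes of other proteins whose names hold a list name, such as folylpolyglutamate synthase, were left out of the lists. Alternatives were other minimums, size factors, weights, folds, means without a test, and leaving out libraries. Gene sequences were not analysed here. Tables were handled with pandas 2.3.3 and figures drawn with matplotlib 3.10.9, in Python 3.11.15.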

Additional observations from a re-analysis of the deposited data

How the results depend on the processing

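The count of called transporter genes was 31 to 39 with any 1 library left out (38 with all), of all genes 7156 to 7944 (7897), of nitrogen assimilation and regulation genes 28 to 32 (31) and of other carriers 45 to 58 (57). Without ‘FT’ library 2, the transporter genes called were 16 higher and 19 lower, against 22 and 16. With a minimum mean of 50, they were 11 higher and 15 lower, all genes called were 5139 and other carriers 34, since fewer genes were tested. With a log2 fold change over 2, 21 transporter genes (17 higher and 4 lower), 3923 of all genes, 13 assimilation and regulation genes and 34 other carriers were called, and with no fold minimum 12776 of all genes and 47 assimilation and regulation genes. Library totals as size factors moved the median gene by -0.05 on the log2 scale and called 40 transporter genes, limma-trend called 37, and line means without a test gave 43 to 49. Without gene models under 1000 coding bases, an alternative chosen after seeing the data, 17 were higher and 15 lower. Of the 38 called genes, 27 kept their call without each single library and 22 in all 10 refits, and 0 of those refits turned the direction of a called gene. No paired analysis was possible because the recovered libraries carry no replicate number that ties a library of ‘FT’ to one of ‘CX001’. For genes with 3 reads or fewer over a line, counting error leaves the size of the fold poorly known, and with 3 libraries per line so is the spread of single genes.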
